A study of Rattus norvegicus with 16 samples.

Results

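The transcripts described here were expressed in hearts of the spontaneously hypertensive rat (SHR) and nearly absent from hearts of the Wistar Kyoto rat (WKY). They were chosen by a fixed rule on the deposited values: a value of at least 3 in each of the 5 untreated and 6 neferine-treated SHR libraries, and under 1 in each of the 5 WKY libraries. The rule found 62 of the 31042 transcripts listed for all 16 libraries, which is 0.2%. Because the strain values made the choice, the strain difference is described and not tested. The tests below compare neferine-treated with untreated SHR.

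The study took ribosomal-RNA-depleted total RNA from heart tissue of 3 groups of rats. Those labelled WKY and SHR, 5 of each, received double distilled water by stomach tube, and 6 SHR were given neferine. The daily dose of neferine was 10 mg/kg and dosing lasted 10 weeks. SHR were divided between water and neferine at random, per the labels' protocols. Neither the age of the animals nor any genotype beyond the strain name is stated in the labels. Each library is named below by its group and animal number.

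SHR is an inbred line selected for high blood pressure whose heart enlarges under that load, and WKY is the normotensive line usually set beside it. Inbred lines differ in alleles, insertions and deletions. Neferine is an alkaloid of the lotus seed. Depletion of ribosomal RNA, unlike selection for poly(A) tails, keeps noncoding and unspliced RNA in the library, and an assembler then builds transcripts from reads that no annotated transcript explains.

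The files gave 2 kinds of identifier. Those that begin with ENSRNOT are annotated Ensembl rat transcripts, and those that begin with MERGE are transcripts assembled from the reads, with a locus number and then a transcript number. No identifier of the 62 could be paired with a gene symbol (0 of 31042 shared identifiers matched the reference table of the GRCr8 assembly). Gene function, genome position and sequence are therefore not given, and markers of heart muscle or of other heart cells could not be looked up. The values are a normalised abundance on a linear scale whose unit is not stated, and are called values below. If the most common ratio between low values of 2 libraries stands for 1 read against 1 read, which was not tested, the depth of the libraries lay between 0.839 (SHR 6) and 1.1 (WKY 1) relative to WKY 4. That ratio was seen in only 122 to 197 low values a library, of 8171 to 9085 compared with WKY 4. Absolute depth is unknown, and a value under 1 in WKY cannot be turned into reads. In heart tissue, fewer cells that make a transcript and less of it per cell cannot be told apart.

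2 points about the libraries come before the results. SHR 1 carries the word WKY in its description, but SHR in its title and in every other field that names a strain. In the residuals left after removing group means, whose first component held 12% of the variance, the scores ran from -0.462 to -0.295 in SHR 3, SHR 4, WKY 1 and WKY 3, while the other WKY and SHR libraries lay between 0.0662 and 0.396. The balance of the neferine estimates and the spread of the members are also given without those of these libraries that enter them. The order of the animals and the correlations between members are given with all libraries only.

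Assembled transcripts made up nearly the whole set. Of the 62 members 58 were MERGE transcripts (93.5%) and 4 were Ensembl transcripts. Among all 6692 shared transcripts that reached 3 in the same 11 SHR-strain libraries, 30.7% were assembled. The 58 assembled members came from 55 loci. In 44 of them, all in separate loci, the member was the only row of its locus in the WKY and SHR files (75.9% of the assembled members), against 52.2% of the 2056 assembled transcripts at 3 or more in the 11 libraries. For 43 of these 44 the transcript number was 1, and the exception was MERGE.6140.3. Some locus numbers lay close together: 14 of the 55 loci (25.5%) formed 7 pairs within 5 numbers of each other, such as MERGE.2621 with MERGE.2622 and MERGE.17959 with MERGE.17961. Whether these numbers follow the order on the chromosomes is not stated. The share of such pairs among other loci was not computed, so whether 25.5% is unusual is not known.

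Levels in the SHR strain covered a wide range. The median over the 11 libraries ran from 3.99 to 87.1, with a median over members of 15, and 16 members had a median of 30 or more, 23 one from 10 to 30 and 23 one below 10. The 62 values summed to 1425 ± 215 in untreated SHR (SD, n = 5), to 1541 ± 80.9 in neferine-treated SHR (SD, n = 6) and to 12.9 ± 2.16 in WKY (SD, n = 5). For 35 members the WKY mean was under 1% of the SHR mean, and for 56 it was under 5%. The rule sets that contrast. What it does not set is whether the WKY values were 0: only 6 members were listed at 0 in all 5 WKY libraries, while 33 had a value above 0 in every one of them.

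**Figure D1:**
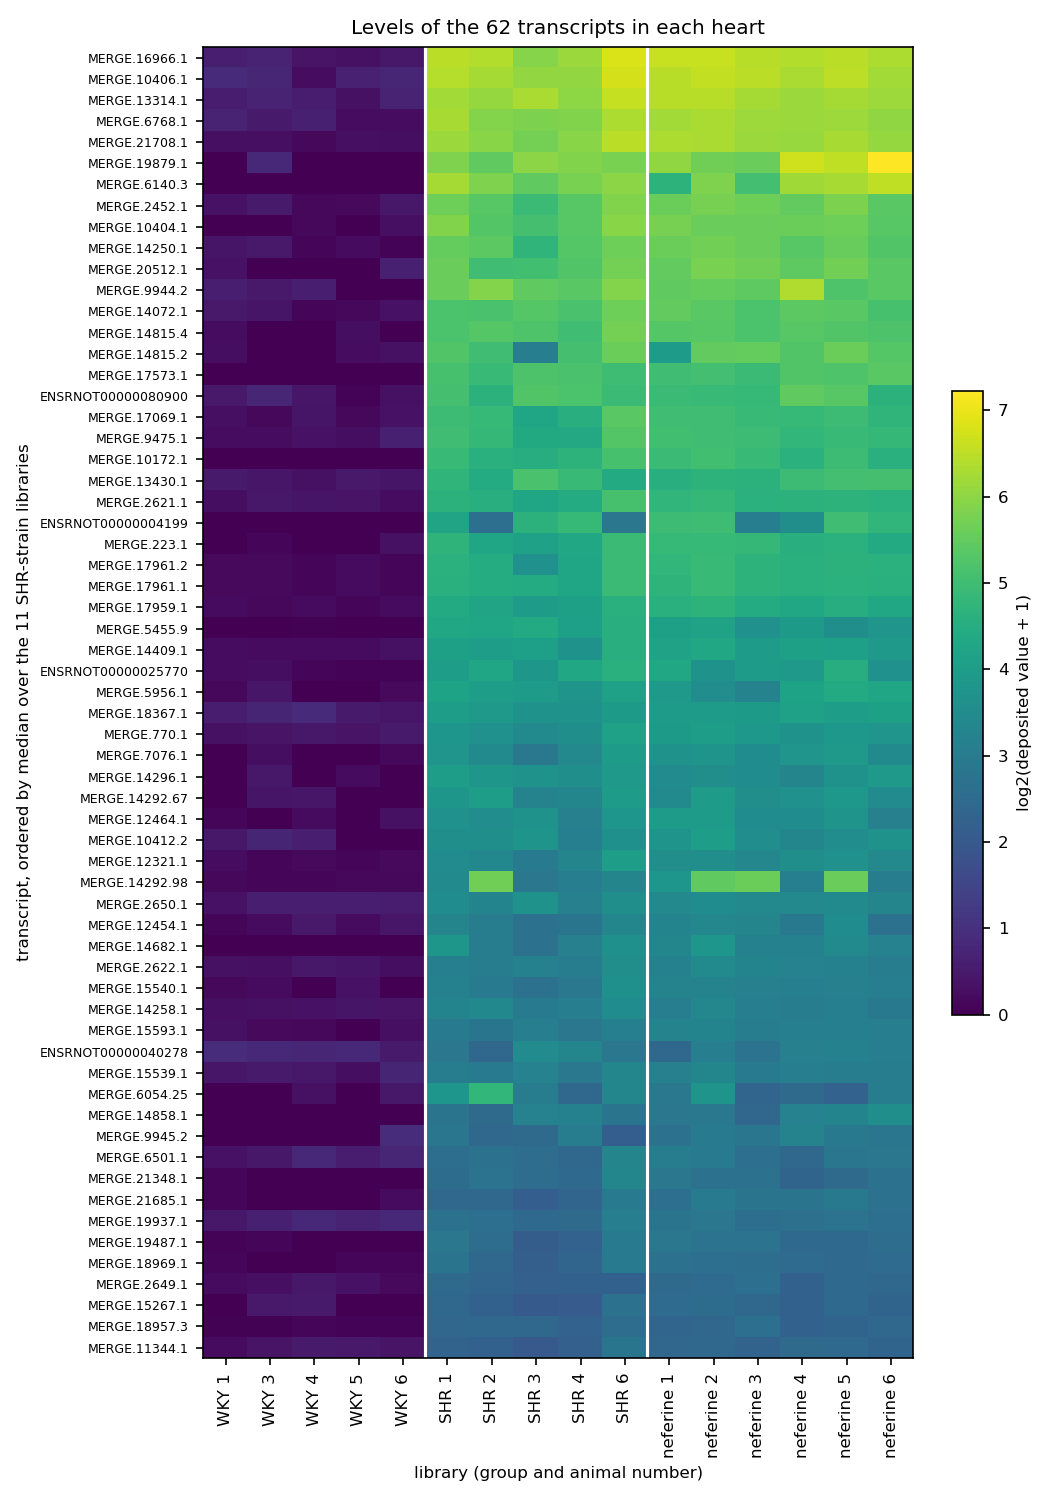
Levels of the 62 transcripts (rows, ordered by their median over the 11 SHR-strain libraries) in each of the 16 libraries (columns), as colour on a scale of log2(deposited value + 1). The 5 WKY columns stay dark because the rule asked for it, and MERGE.14292.98 and ENSRNOT00000004199 are among the rows with the most uneven colour in the SHR-strain columns.

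The most abundant member was MERGE.16966.1, an assembled transcript that is the only row of its locus. It stood at 88.5, 83, 59.3, 68.9 and 112 in SHR 1, 2, 3, 4 and 6. With neferine it stood at 97.6, 98.1, 87.1, 83.2, 88.9 and 79.4 in animals 1 to 6, and in WKY at 0.531, 0.626, 0.301, 0.258 and 0.39 in animals 1, 3, 4, 5 and 6. SHR 6 was the highest and SHR 3 the lowest of the 11, and the neferine values lay inside the range of untreated SHR. Of 24576 other tested transcripts, the 3 whose log2 values followed it most closely over the 11 libraries were MERGE.17069.1, which is also a member (Pearson's r 0.987), ENSRNOT00000080663 (0.983), and MERGE.9475.1, a member again (0.959). The Ensembl transcript among them had nearly equal means in the 3 groups (63.6 in WKY, 60.6 in SHR and 63.2 with neferine). These correlations are a description over 11 libraries that share normalisation and composition.

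The next 4 by level were also sole transcripts of their loci. MERGE.10406.1 stood at 85.4, 75.7, 65, 65.1 and 108 in SHR 1, 2, 3, 4 and 6, and from 73.6 to 94 with neferine (median over the 11 libraries 85.4). MERGE.13314.1 lay between 62.8 and 95.7 in SHR and between 69.8 and 87.2 with neferine. MERGE.6768.1 lay between 54.7 and 80 in SHR and between 63.9 and 78 with neferine. In these 3 transcripts SHR 6 was the highest of the 11 libraries. MERGE.21708.1, at 69.9, 60.6, 51.8, 60.9 and 88.4 in SHR 1, 2, 3, 4 and 6, was at 0.122 to 0.228 in WKY, so its WKY mean was 0.302% of its SHR mean. MERGE.2452.1 (SHR mean 42.9 ± 10.5, SD, n = 5), MERGE.10404.1 (45.8 ± 12.4, SD, n = 5) and MERGE.14250.1 (39.9 ± 8.79, SD, n = 5) completed the 10 highest together with MERGE.19879.1 and MERGE.6140.3, which are taken up below.

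The 6 members at 0 throughout WKY were MERGE.6140.3, MERGE.17573.1, MERGE.10172.1, ENSRNOT00000004199, MERGE.14682.1 and MERGE.14858.1. MERGE.17573.1 was also the member that varied least among untreated SHR, at 33.6, 29.1, 35.7, 34.5 and 30.8 in SHR 1, 2, 3, 4 and 6 (coefficient of variation, CV, 8.36%). With neferine it stood at 31.4, 32.4, 29.4, 37.6, 36.6 and 40.8 in animals 1 to 6. Those 2 ranges overlap, with the highest value in neferine 6. MERGE.18957.3 (CV 9%) and MERGE.2649.1 (CV 10.3%) were the next most even, at much lower levels of 4.36 ± 0.392 and 3.97 ± 0.409 (SD, n = 5 SHR).

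The 4 Ensembl transcripts did not share a profile. ENSRNOT00000080900 was the highest of them, at 33.1, 24.1, 37.2, 35.4 and 29.2 in SHR 1, 2, 3, 4 and 6 and from 24 to 42.9 with neferine, against 0.0399 to 0.714 in WKY. ENSRNOT00000025770 stood at 17.8 ± 3.83 in SHR (SD, n = 5) and at 15.4 ± 4.04 with neferine (SD, n = 6). ENSRNOT00000040278 came nearest to the WKY limit, with 0.426 to 0.894 in WKY and 7.22 ± 2.35 in SHR (SD, n = 5), so that WKY hearts held 9.83% of the SHR mean. ENSRNOT00000004199, at 0 in all 5 WKY libraries, was uneven among the SHR-strain animals: SHR 2 and 6 had 5.2 and 6.26, neferine 3 and 4 had 7.56 and 10.9, SHR 1, 3 and 4 had 17.5, 24.1 and 27.5, and neferine 1, 2, 5 and 6 had 26 to 31. High and low animals were present in both the water and the neferine group.

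The values on either side of the limits were close to each other. Just inside the lower limit of 3, the lowest SHR-strain values of MERGE.11344.1, MERGE.15267.1 and MERGE.19487.1 were 3.03, 3.14 and 3.42. Just outside it, those of MERGE.21357.1, MERGE.4963.1 and MERGE.21201.1 were 2.87, 2.64 and 2.57. Just inside the WKY limit of 1, the highest WKY values of ENSRNOT00000040278, MERGE.9945.2 and MERGE.18367.1 were 0.894, 0.893 and 0.83, and just outside it those of MERGE.17595.1, MERGE.5460.1 and MERGE.17958.1 were 1.09, 1.1 and 1.12. MERGE.17958 neighbours the members' loci MERGE.17959 and MERGE.17961 by number.

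The rule was also applied to part of the libraries, to see how far the choice depended on the rest. Applied to WKY and untreated SHR alone, the rule found 75 transcripts, all of them listed in the neferine files, and 62 of the 75 (82.7%) had a value of at least 3 in every neferine library. The same share was 90.4% of the 7405 shared transcripts at 3 or more in every SHR library, and 83.5% of the 2463 assembled ones among them. Applied to WKY and neferine libraries alone, it found 71, and 62 of these (87.3%) reached 3 in every SHR library, against 88% of the 7605 shared transcripts at 3 or more in every neferine library. The members' shares were thus no higher than those of all transcripts. Leaving out 1 library at a time, between 62 and 67 transcripts met the rule in the other 15, of which the 62 members meet it in the library left out by construction. For SHR 1, whose description reads as WKY, 64 were chosen without it, 2 more than with it. Leaving out SHR 3 or SHR 4 added none.

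Some transcripts that met only part of the rule were listed at 0 in 1 or 2 animals. Those named in this paragraph were picked after their values were seen. Of the 13 that met the rule in WKY and SHR but not in every neferine library, 5 were listed at 0 in at least 1 neferine animal, and 8 fell short in 1 animal alone. MERGE.11744.1 stood between 21.2 and 31.4 in the 5 SHR and between 21.5 and 27.3 in neferine 1, 3, 4 and 6, but was listed at 0 in neferine 2 and 5. MERGE.155.1 stood between 5.38 and 8.68 in 10 SHR-strain libraries and at 0 in neferine 3. In the other direction, MERGE.16635.1 was at 0 in all WKY, in SHR 2 and in SHR 4, and between 6.63 and 15 in the other 9 SHR-strain libraries. ENSRNOT00000004702 stood at 0.423 in SHR 1, below its WKY range of 0.455 to 0.763, and between 57.2 and 74.4 in the other 10. ENSRNOT00000004702 and MERGE.21347.1, which was listed at 0 in SHR 1, were the 2 exceptions among the 64 chosen without that library.

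**Figure D2:**
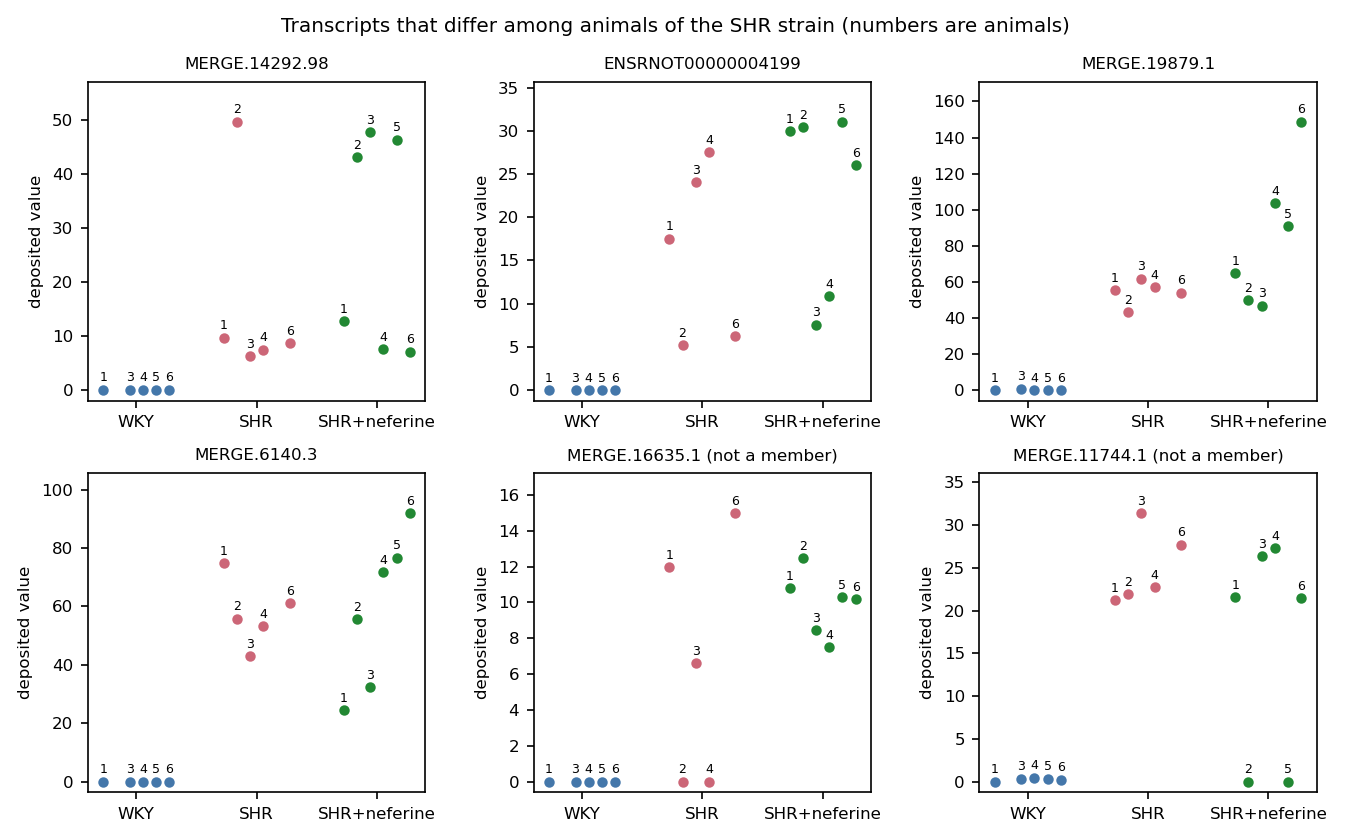
Deposited values (vertical axes) of 4 members and 2 transcripts outside the set in each animal, by group, with the animal number beside each point. MERGE.14292.98 divides the SHR-strain animals into a high and a low set that both hold treated and untreated rats, ENSRNOT00000004199 is graded from 5.2 to 31, and MERGE.16635.1 and MERGE.11744.1 were listed at 0 in 2 SHR-strain animals each.

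The question put to the treatment was whether neferine changes the level of these transcripts in the SHR heart. It changed none of them past the threshold. With limma on log2(value + 1), fitted over 24577 transcripts with all 16 libraries, 0 of 62 members had a Benjamini-Hochberg adjusted p under 0.05, against 1 of all transcripts tested (0.00407%). At an unadjusted p under 0.05 there were 2 of 62 members (3.23%), 5.88% of all transcripts and 4.65% of the 6692. The smallest limma adjusted p of a member was 0.784. All 62 members passed the filter on low values, which asks for a value of 1 in 5 libraries, since the rule itself guarantees it. For none of the 62 did the 6 neferine libraries lie wholly above or below the 5 untreated ones, against 0.517% of all transcripts.

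The estimates were also precise enough to bound most changes. On the log2(value + 1) scale, 57 of the 62 members (91.9%) had a 95% confidence interval that excluded changes beyond 2-fold both up and down, against 68.6% of all tested transcripts and 92.5% of the 6692 at 3 or more in the 11 libraries. Adding 1 narrows changes at low values. With a pseudocount of 0.1 the count was 52 of 62 (83.9%), against 47.9% of all tested transcripts. The rule used the neferine values too and drops transcripts that either SHR group lacks in an animal, so the members' share says nothing particular to them. On the log2(value + 1) scale, the 5 members with an interval beyond 2-fold were MERGE.14292.98, ENSRNOT00000004199, MERGE.19879.1, MERGE.6054.25 and MERGE.14815.2. The last of these stood at 7.46 in SHR 3 and 14.8 in neferine 1, and between 31.1 and 47.4 in the other 9 SHR-strain libraries. For MERGE.16966.1 the log2 fold change was 0.14 (interval -0.15 to 0.43), and for MERGE.13314.1 it was 0.04 (interval -0.19 to 0.28). Over all members the log2 fold change ran from -0.67 to 0.76. The 34 members outside the rule for naming had log2 fold changes from -0.22 to 0.39, SHR means from 4.91 to 39.6 and WKY means of at most 0.63.

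The members' median log2 fold change was 0.09, against 0.04 over all tested transcripts, and 46 of 62 estimates (74.2%) were above 0, against 56.7%. That balance moved with the libraries used. Without WKY 1, WKY 3, SHR 3 and SHR 4 the median was -0.04 and 20 of 62 estimates (32.3%) were above 0. Over all tested transcripts that fit gave a median of 0.03 and 54.4% above 0. There 5 members (8.06%) had an unadjusted limma p under 0.05, against 6.87% of all transcripts. Of these 5, 4 were lower with neferine, and 0 passed after adjustment. Without SHR 6 alone the median was 0.18 with 52 estimates (83.9%) above 0, against 0.05 and 59% over all tested transcripts. In that fit 13 members (21%) in place of 2 had an unadjusted limma p under 0.05, against 5.83% of all transcripts. Of these 13, 12 were higher with neferine, and 0 passed after adjustment. SHR 3 and SHR 4 had the lowest sums of the members among the 11 libraries (1210 and 1275) and SHR 6 the highest (1746).

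**Figure D3:**
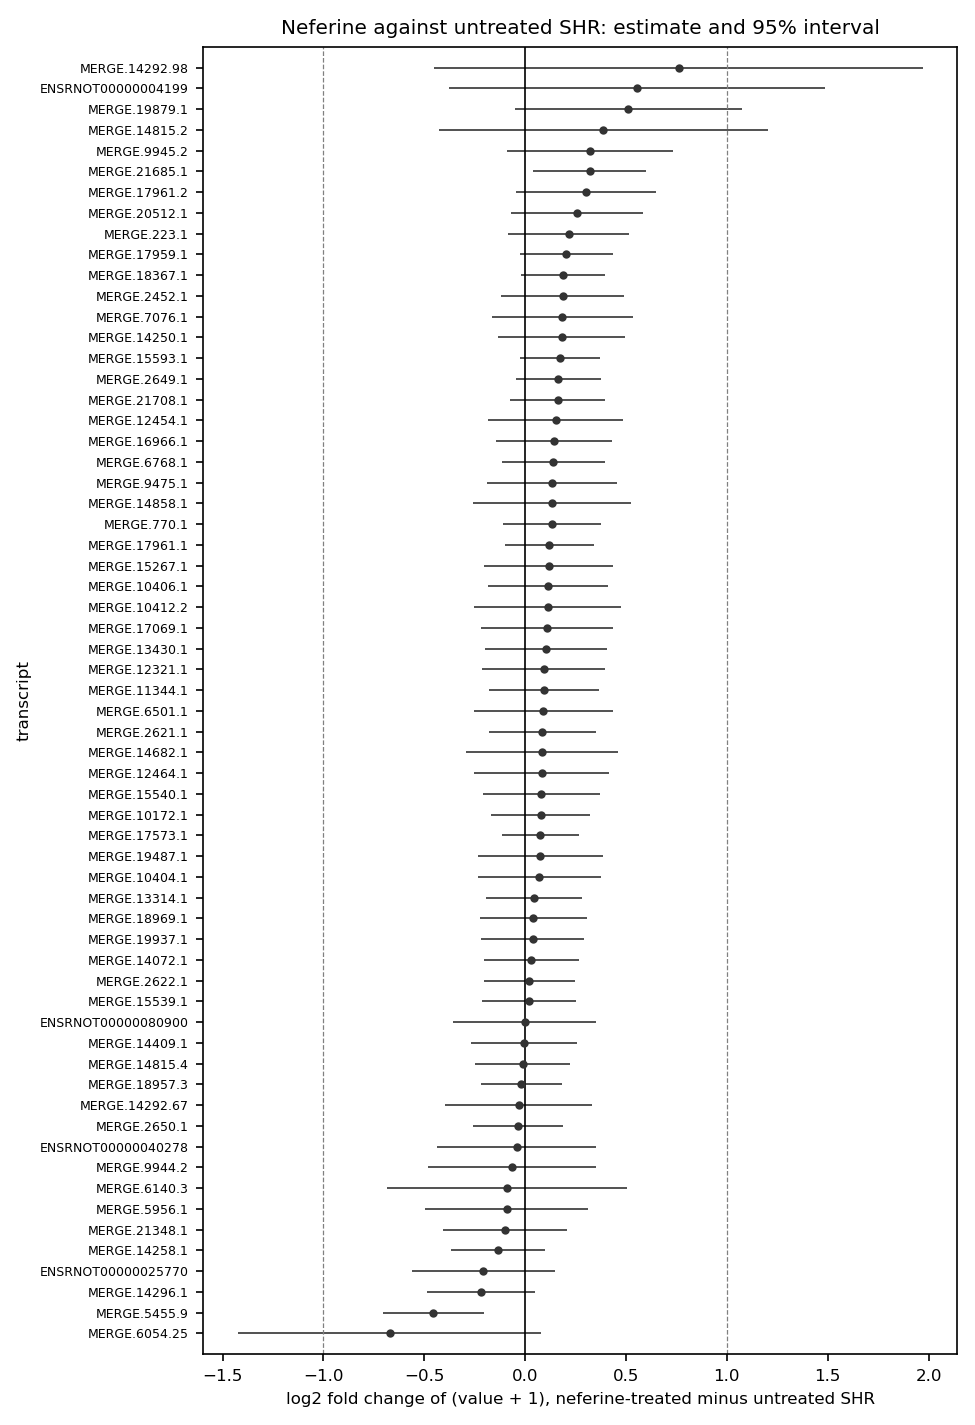
Log2 fold change of (value + 1) in neferine-treated minus untreated SHR hearts (horizontal axis) for each of the 62 members (vertical axis, sorted), with limma 95% confidence intervals as bars and dashed lines at 2-fold. The estimates run from -0.67 to 0.76, and 57 of the 62 intervals lie between the dashed lines.

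The member with the smallest p was MERGE.5455.9, from a locus of 10 assembled transcripts. It stood at 18.8, 18.4, 20.2, 16 and 22.8 in SHR 1, 2, 3, 4 and 6, and at 16.3, 17, 11.5, 14.4, 11.1 and 12.7 in neferine 1 to 6. Neferine 1 and 2 overlapped the lowest untreated animal, SHR 4, and the other 4 lay below it. The log2 fold change was -0.45 (SE 0.118, unadjusted p 0.00155, limma adjusted p 0.784), so it did not pass. MERGE.21685.1 came next, at 4.68 ± 1.32 (SD, n = 5) in untreated animals and 5.97 ± 0.631 (SD, n = 6) in treated ones. Its limma adjusted p was 0.834. MERGE.19879.1, MERGE.18367.1 and MERGE.6054.25 had limma adjusted p of 0.836 each.

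Untreated animals spread more widely than treated ones at most members. The CV over the 5 untreated SHR had a median of 22.2% over members and exceeded the CV over the 6 neferine animals, whose median was 11.4%, in 47 of 62 members (75.8%). Over all 6692 transcripts at 3 or more in the 11 libraries the medians were 16.9% and 14.2%, and the untreated CV was the larger in 61%. The difference in spread was not tested. Without SHR 6 the members' untreated median was 16.2%, and without SHR 3 and SHR 4 it was 18.9%, with 40 of 62 members above their neferine CV.

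The wide spread came with a common order of the animals in the 44 members that are alone in their locus. Their lowest untreated value was in SHR 3 or SHR 4 in 40 of 44, and their highest in SHR 6 in 35 of 44. For the 18 other members these counts were 12 and 8. The counts were not made over all transcripts, so how far this order is particular to members is not known. The median CV of these 44 was 22.2% in untreated and 10.3% in neferine-treated SHR, while that of the other 18 members was 22.3% and 22.1%. After the group means were removed, pairs of the 44 had a median Pearson's r of 0.642 over the 11 libraries, and 11% of their 946 pairs reached 0.9. Pairs among the 1030 other assembled transcripts at 3 or more that are alone in their locus had a median of 0.0837 (0.486% at 0.9 or more), and pairs among the 18 other members one of -0.0118. MERGE.16966.1 with MERGE.17069.1 (0.991), MERGE.2621.1 with MERGE.15540.1 (0.986) and MERGE.12321.1 with MERGE.11344.1 (0.983) were the closest pairs. The libraries that set this order include SHR 3 and SHR 4, which had the lowest residual scores of untreated SHR (-0.462 and -0.305), and the part of these libraries in it was not tested.

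**Figure D4:**
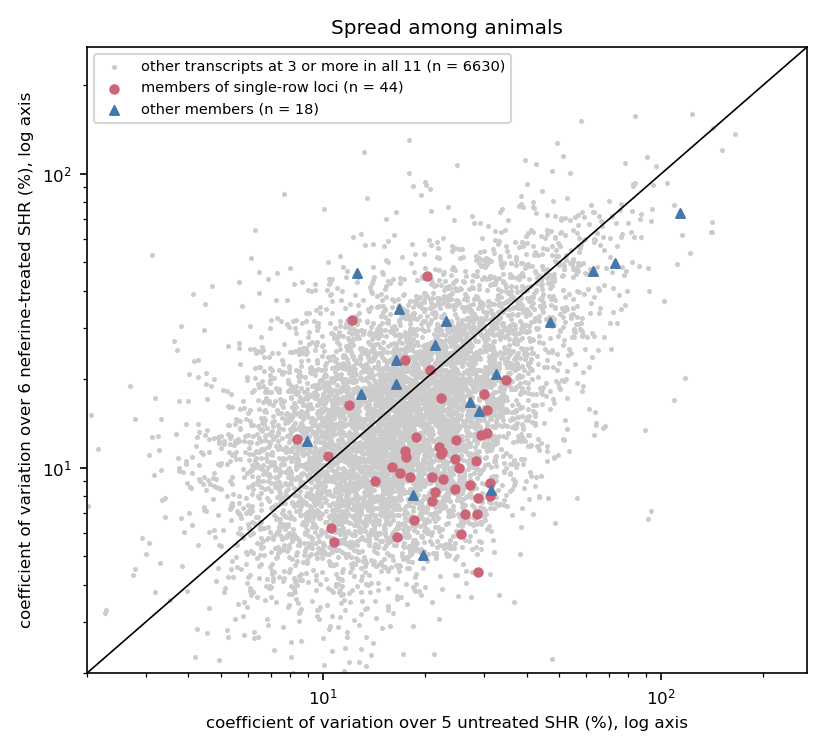
Coefficient of variation over the 5 untreated SHR (horizontal, %) against that over the 6 neferine-treated SHR (vertical, %), both on log axes, for 44 members alone in their locus, the 18 other members and all other transcripts at 3 or more in the 11 libraries, with a line of equal spread. Most members of single-row loci (37 of 44) lie below the line.

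Some members did not follow that order, including some that are alone in their locus. MERGE.17573.1, the most even one, was lowest among untreated SHR in SHR 2 and highest in SHR 3. MERGE.13430.1 (CV 22.3%) was lowest in SHR 6 and highest in SHR 3. Both are alone in their locus. The most uneven member was MERGE.14292.98, which stood at 49.6 in SHR 2 and at 43.1, 47.6 and 46.3 in neferine 2, 3 and 5, and between 6.29 and 12.8 in the other 7 SHR-strain animals (CV over untreated SHR 114%). MERGE.6054.25 ran from 4.32 in SHR 4 to 26.7 in SHR 2 (CV 73.2%) and from 3.8 to 12.3 with neferine. MERGE.14292.98 thus had no value between 12.8 and 43.1, whereas MERGE.6054.25 was graded. MERGE.6140.3 stood between 42.9 and 74.8 in untreated SHR, and with neferine at 24.4, 55.6 and 32.3 in animals 1 to 3 and at 71.8, 76.8 and 91.9 in animals 4 to 6. MERGE.19879.1, at 43.2 to 61.9 in untreated SHR, was likewise lower in neferine 1, 2 and 3 (64.8, 50 and 46.8) than in neferine 4, 5 and 6 (104, 90.8 and 149). Neferine 4, 5 and 6 also had residual scores below 0 (-0.161, -0.146 and -0.0643) and neferine 1, 2 and 3 above 0 (0.111 to 0.143). In untreated SHR, MERGE.6140.3 ran the other way, lowest in SHR 3 (score -0.462) and highest in SHR 1 (0.286). MERGE.19879.1 ran the same way there, highest in SHR 3 and lowest in SHR 2 (0.231). A link of these transcripts to the scores was not tested.

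For 14 members in 11 loci the files listed further transcripts of the same locus, and these show what else of the locus was present in WKY hearts. Most loci fell into 3 overlapping kinds by their WKY and SHR values, which are described without a test because the rule used the same contrast. In MERGE.14815 and MERGE.17961 the whole locus was nearly silent in WKY. The 4 rows of MERGE.14815 summed to 1.64 ± 0.294 in WKY (SD, n = 5) and to 194 ± 39.2 in SHR (SD, n = 5), and its 2 members held 36.2% of the SHR sum. The rest of that sum was almost all MERGE.14815.1, which missed the rule at 1.2 to 1.52 in WKY and stood between 85.3 and 152 in SHR. MERGE.17961 had 2 rows, both members, which summed to 0.227 ± 0.0711 in WKY and 43.5 ± 10.2 in SHR (SD, n = 5 each). Both rows had the same value in each WKY library and in neferine 4 (22.9), and differed most in SHR 3 (20.9 in MERGE.17961.1 and 11.7 in MERGE.17961.2). Whether they are separate transcripts was not tested.

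In a second kind, other transcripts of the locus were present in WKY and the locus sum had the higher mean in SHR, though single transcripts could run the other way. MERGE.9944.1 stood at 36.6 ± 7.91 in WKY and 127 ± 42 in SHR (SD, n = 5 each), beside the member MERGE.9944.2 at 0.29 ± 0.27 and 49.1 ± 8.27. MERGE.10412.1 stood at 2.93 to 4.78 in WKY and 10.4 to 15.1 in SHR, beside MERGE.10412.2 at no more than 0.691 and at 7.77 to 12.5. MERGE.9945, numbered next to MERGE.9944, summed to 4.77 ± 1.16 in WKY and 34 ± 5.1 in SHR (SD, n = 5 each), of which MERGE.9945.2 held 15.4%. Most of that SHR sum was MERGE.9945.4, at 3.06 ± 0.67 in WKY and 19.6 ± 2.38 in SHR (SD, n = 5 each). MERGE.5455 summed to 47.5 ± 6.9 in WKY and 79.4 ± 11.5 in SHR, and its member MERGE.5455.9 held 24.3% of the SHR sum. Its most abundant WKY transcript, MERGE.5455.1, was lower in SHR, at 13.6 to 17.3 in WKY and 5.71 to 8.3 in SHR, and MERGE.5455.3 had a mean of 6.93 in WKY and 0.0135 in SHR. MERGE.6054 was uneven in both strains, from 13 to 42.1 in WKY and from 30 to 68.1 in SHR, so its strain ranges overlapped.

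In the third kind, another transcript of the locus was high in WKY and near 0 in SHR. MERGE.18957.1 stood at 45.1, 44.5, 29.2, 31 and 28.4 in WKY 1, 3, 4, 5 and 6 and at no more than 1.03 in the SHR libraries, while the member MERGE.18957.3 stood at 0.0697 or less in WKY and at 3.85 to 4.94 in SHR. The locus sum was thus lower in SHR (5.1 ± 0.407) than in WKY (35.7 ± 8.39, SD, n = 5 each), although the member was an SHR transcript. In MERGE.19879 the pair was exchanged: MERGE.19879.2 stood at 7.39 to 11.9 in WKY and was listed at 0 in all 5 SHR, while MERGE.19879.1 was at 0 in 4 WKY libraries, at 0.775 in WKY 3, and at 43.2 to 61.9 in SHR. The sum of MERGE.19879 was 10.3 ± 2.05 in WKY and 54.4 ± 6.87 in SHR (SD, n = 5 each), so this locus also meets the description of the second kind. MERGE.14858 belonged to none of these kinds: MERGE.14858.3 stood at 0.899 to 2.38 in WKY, at 0.34 to 1.14 in SHR and at 0.692 to 1.76 with neferine, which overlap, beside the member MERGE.14858.1 at 0 in WKY and 6.54 ± 1.51 in SHR (SD, n = 5).

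MERGE.14292 was the largest of these loci, with 63 rows in the WKY and SHR files. Its sum was 820 ± 113 in WKY and 245 ± 70.3 in SHR (SD, n = 5 each), so its 2 members, MERGE.14292.67 and MERGE.14292.98, are SHR transcripts of a locus that was higher in WKY. MERGE.14292.67 stood at 13.3, 15.6, 8.47, 9.04 and 15 in SHR 1, 2, 3, 4 and 6, and at 9.71 to 14.9 with neferine. The locus held 4 transcripts of at least 3 in every WKY library and under 1 in every SHR library, MERGE.14292.87 (120 ± 87.1), MERGE.14292.63 (107 ± 9.46), MERGE.14292.58 (16.7 ± 5.85) and MERGE.14292.90 (WKY means ± SD, n = 5), the last at 7.93 ± 3.32. None of these 4 is a row of the neferine files. With MERGE.19879.2 these were 5 of 37 transcripts with that reverse pattern in the WKY and SHR files.

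**Figure D5:**
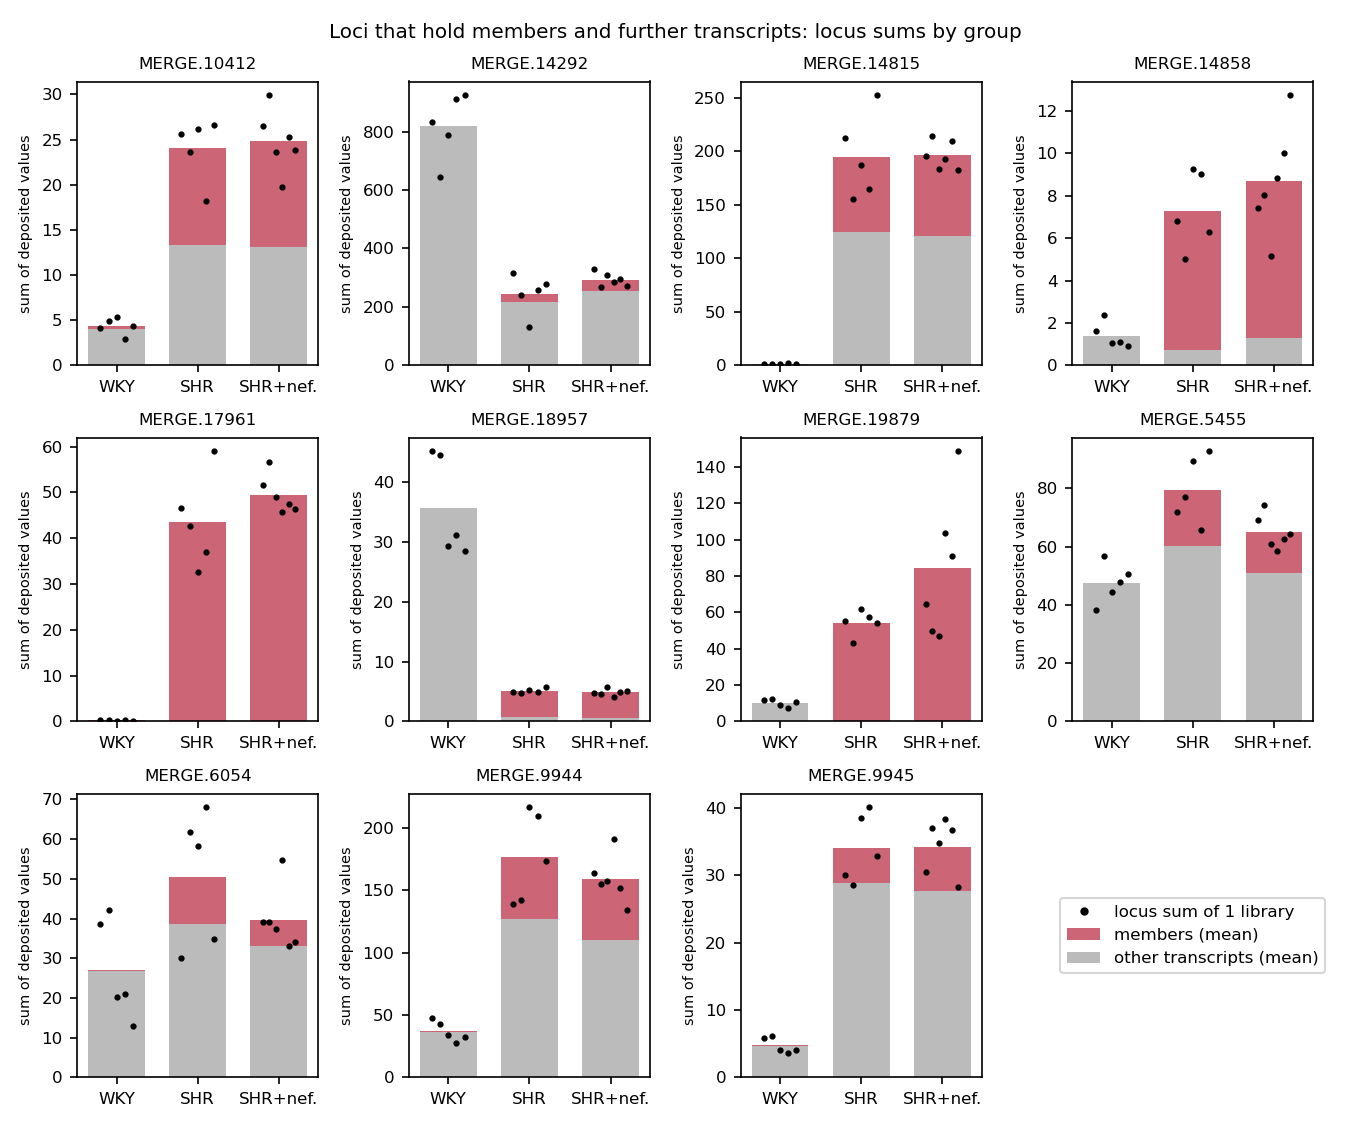
Sums of deposited values (vertical axes, from 0, a separate scale per panel) over all rows listed in each group's files for the 11 loci with members and further transcripts. Bars give the group means of members (red) and other transcripts (grey), and points the locus sum of each library; MERGE.14292 and MERGE.18957 have the larger sum in WKY, and the other 9 the larger mean in SHR.

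Locus sums were tested in the same way. The sums were taken over rows shared by all files. For the 44 loci of 1 row the sum is the member itself, and so it is for MERGE.19879, which has 1 shared row. Only the rest of the 11 loci with further rows in the WKY and SHR files add to the test of single transcripts. On locus sums, limma fitted over 8664 assembled loci called 0 of the 55 loci with members at an adjusted p under 0.05 and 0% of all loci. At an unadjusted p under 0.05 it found 2 of 55 (3.64%), against 5.51% of all. Of the 11 loci with further rows, 1 had an unadjusted p under 0.05. It was MERGE.5455, whose shared rows summed to 79.4 ± 11.5 in SHR and 64.9 ± 5.72 with neferine (log2 fold change -0.28, SE 0.112, unadjusted p 0.0249, limma adjusted p 0.895). The 95% interval excluded changes beyond 2-fold both up and down for 9 of these 11 loci, against 80.8% of all loci. The exceptions were MERGE.6054 and MERGE.19879, and the latter repeats the estimate of its member.

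The part of a locus that the member holds was compared as well, as the log2 ratio of the member to the rest of its locus. The 13 members with another shared row gave 0 calls by limma at an adjusted p under 0.05 (0% of 8359 transcripts) and 0 at an unadjusted p under 0.05 (5.13% of all). MERGE.5455.9 had a log2 ratio difference of -0.23 (SE 0.192, limma adjusted p 0.969). MERGE.18957.3 held 85.6% of the shared rows of its locus in SHR and 88.9% with neferine, MERGE.10412.2 held 44.7% and 47.1%, and MERGE.9944.2 held 29.3% and 29.9%. Other shares moved further: MERGE.6054.25 held 26.5% and 18.9%, MERGE.14858.1 held 90.1% and 84.6%, and MERGE.9945.2 held 15.4% and 19.3%. The WKY transcript MERGE.18957.1 stood at 0.296 to 0.854 in the neferine libraries. MERGE.19879.2 was not a row of the neferine files, so its level under neferine is not known here.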

How the data were processed

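Each library has a file of transcripts in which the authors deposited an abundance signal, normalised and linear. The unit, aligner, quantification tool, genome build and annotation are not given in the sources used here. limma is named, with no version, in the submitters' processing notes. Low values of part of the transcripts stepped between libraries by ratios of small whole numbers (5.55% to 6.92% of ratios to WKY 4 within 0.1% of a ratio of whole numbers up to 4). No label says that animals were prepared separately, so p-values measure the spread between these libraries.

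Groups and animal numbers came from titles. Transcripts listed in all 16 files were used for the rule. The WKY and SHR files had 32924 rows, which were used for the other transcripts of loci. The members, lists and tests were chosen with earlier results of these data known. Members to name were the 10 highest, all Ensembl transcripts, the 5 smallest p, the 3 lowest and 3 highest CV, those with most other signal of their locus in WKY and those nearest to the limits.

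limma 3.58.1 in R 4.3.3 was run on log2(value + 1) with a variance trend (none for the ratio within a locus), 1 mean per group, rows with a value of at least 1 in 5 libraries, and an adjusted p threshold of 0.05. It was checked on simulated data. Alternatives were a pseudocount of 0.1, no filter, only SHR and neferine libraries, the animal number as a block, median-of-ratios factors, robust moderation, other limits of the rule and leaving out each library.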

Additional observations from a re-analysis of the deposited data

Results flagged for a closer look

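Among 84 groups of library values, of the named members and of the sums over members, in 7 a single library stood far apart. The limit used marks about 1 in 20 groups by chance when groups are not selected. Some members were named for their spread or their highest WKY value, and the rule caps WKY values. The 7 of 84 can therefore not be set against that rate. MERGE.14292.98 stood at 49.6 in SHR 2 and at 6.29 to 9.68 in the other 4 untreated SHR. MERGE.9944.2 stood at 82 in neferine 4 and at 36.4 to 44.5 in the other 5 treated animals. MERGE.11344.1 stood at 6.06 in SHR 6 and at 3.03 to 3.9 in the other 4. The remaining 4 concern low WKY values, and the number of reads behind them is not known. MERGE.21708.1 stood at 0.122 in WKY 4 and at 0.205 to 0.228 in the others. MERGE.19879.1 stood at 0.775 in WKY 3, MERGE.5455.9 at 0.0319 in WKY 4 and MERGE.9945.2 at 0.892 in WKY 6, and each was listed at 0 in the other 4 WKY libraries.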

How the results depend on the processing

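No member was called for neferine against SHR under any of the 19 other settings (0 of 62 each time, limma adjusted p of at least 0.533). No locus sum of a member and no ratio of a member to its locus was called under the settings run for them. The estimates of 15 of the 28 named members, none called, changed sign under some setting. MERGE.5455.9 kept log2 fold changes from -0.52 to -0.39, with limma adjusted p from 0.533 to 0.995. The count over all transcripts was 1, and 3 with only the SHR and neferine libraries, 2 with the replicate block and 4 for the same 10 libraries unblocked, and it ran from 1 to 7 when libraries were left out one at a time. The 7 calls were without neferine 3, with 3 without SHR 2 and 2 each without SHR 1, SHR 4 and SHR 6. The block changed no call among members. No pairing by animal number was detected. Same-numbered SHR and neferine libraries had residual correlations from -0.0229 to 0.0286, and no SHR library correlated best with its own number. Such correlations over all transcripts cannot exclude a pairing. The rule found 126 transcripts with a lower limit of 1 in place of 3 and 6 when WKY had to be listed at 0. With a lower limit of 5 it found 48, with a WKY limit of 0.5 it found 45, after median-of-ratios scaling 62, and between 62 and 67 without single libraries. Absolute depth is unknown, so whether a WKY value of 0 means absence cannot be told.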
